A study of Mus musculus with 12 samples.

Results

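The p200 family, also called the PYHIN family, was followed across cultured mouse hematopoietic stem cells (HSCs). The members were the 8 genes of the deposited table named Ifi203, Ifi204, Ifi207, Ifi209, Ifi211, Ifi213, Mndal and Aim2, each taken once by its Ensembl gene ID, out of 40481 genes in all. They were chosen by family name. They and the gene lists below were, however, chosen with earlier results of these data known, so counts over them describe and do not test. The 12 RNA libraries fell into 4 groups of 3: wild-type (WT) and iE/R cells from fetal liver at E14.5 (embryonic age in days), and WT and iE/R cells from bone marrow at 8 weeks of age. The fusion named in the series title is ETV6-RUNX1, and the title asks how ontogeny, that is fetal against adult origin, shapes its effect. Every group, WT included, was cultured under conditions that expand HSCs for 3 days, with DOX at 1 µg/mL, so no group shows cells without the agent or straight from the animal. The labels used here do not say what drives the fusion, whether replicates came from separate animals, or the sex of the animals, and the p-values below therefore measure the spread between these libraries.

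Proteins of this family join a DNA-binding HIN-200 domain, a pyrin domain, or both. Their genes sit side by side on mouse chromosome 1, and most are switched on by interferon. AIM2 binds DNA in the cytosol and assembles an inflammasome with the adaptor ASC (Pycard) and caspase-1, while Ifi204 encodes p204, a mouse relative of the human DNA sensor IFI16. Ifi203 and Mndal encode HIN-200 proteins of the nucleus. Blood cells, myeloid cells above all, are where the family is best known.

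Levels are given in CPM, a gene's reads scaled to a fixed total per library. The libraries held between 32.3 and 64.5 M reads. Levels at or under 3 reads, between 0.0465 and 0.0928 CPM by library, were treated as not told from 0, and this floor takes in counting error alone. Differences are on the log2(CPM + 1) scale with their standard error (SE), which understates the change of low genes. Adjusted p-values are limma's, with Benjamini-Hochberg adjustment over the 14271 genes tested, and "called" means adjusted p under 0.05. An exact permutation test of 3 libraries against 3 could not go below p = 0.1 and is not given per gene.

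The promoter windows of the family are shown first because they hold a stretch that several members share. RefSeq (GRCm38.p6) gave windows, from 250 bases before to 50 after an annotated start, for 7 of the 8 members. The letters searched, on both strands, were the core of the interferon-stimulated response element (ISRE), GAAANNGAAA, an element through which interferon switches genes on. Windows of 5 of these 7 members held it, against windows of 3.99% of all 27025 genes and 3.44% of all 32851 windows of this length. The stretches below are 56 bases each, written 5′ to 3′ on the strand of the gene, with the element in capitals.

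Ifi203: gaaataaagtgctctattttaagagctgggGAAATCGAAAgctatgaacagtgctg
Mndal: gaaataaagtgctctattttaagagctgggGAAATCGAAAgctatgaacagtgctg
Ifi207: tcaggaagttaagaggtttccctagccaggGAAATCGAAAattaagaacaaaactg
Ifi211: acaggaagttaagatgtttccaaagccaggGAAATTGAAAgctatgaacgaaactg
Ifi213: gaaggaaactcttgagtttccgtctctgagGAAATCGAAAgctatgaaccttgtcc
Ifi209: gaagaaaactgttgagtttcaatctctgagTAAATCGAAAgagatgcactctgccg

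These stretches lie at chr1:173942502-173942557 (Ifi203), chr1:173880198-173880253 (Mndal), chr1:173741825-173741880 (Ifi207), chr1:173913058-173913113 (Ifi211), chr1:173599320-173599375 (Ifi213), all on the minus strand, and chr1:173630750-173630805 (Ifi209), on the plus strand. The element begins 35 bases before the start in Ifi203, 36 in Mndal, 37 in Ifi211, 41 in Ifi207, 73 in Ifi213 and 79 in Ifi209. The stretches of Ifi203 and Mndal were 100% identical. The form GAAATCGAAA, the commonest in the family, stood in windows of 4 members and of 0.0592% of all genes with windows, the p200 genes included. Ifi211 carried GAAATTGAAA. Ifi209 carried TAAATCGAAA, which differs from the commonest form by G1T, counted from the first base of the element, and so does not match the core. The Aim2 window held no match. The core of the gamma-activated site, TTCNNNGAA, was in windows of 0 of the 7 members, against windows of 9.55% of all genes. A match is a run of letters, and no binding was measured here.

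Along GRCm38 chromosome 1 the members span chr1:173350879-173942672, a stretch of 592 kb with 18 annotated genes. Of these, 10 were tested, and all 10 belong to the family. Because the genes arose from one another, the share of each member's 100-base stretches that also occur in another family gene was computed from the GENCODE transcripts. It was 0% for Aim2, 0.263% for Ifi207, 2.84% for Ifi203, 3.30% for Ifi213, 5.89% for Mndal, 10.7% for Ifi204, 16.9% for Ifi209 and 56.9% for Ifi211. How the counting treated reads that fit several genes is not given in the sources used here, so the level of Ifi211 above all is uncertain, and the sum over the members is given below. Mndal also overlaps Ifi203 on the same strand, with 37 exonic bases in common. Ifi211 lies wholly within the span of Mndal, on the same strand, with 0 exonic bases in common. Aim2 overlaps Cadm3, on the other strand, with 0 exonic bases in common.

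In fetal liver HSCs, each of the 8 members was higher in all 3 iE/R libraries than in all 3 WT libraries, and each was called higher. Over all genes tested, 24.8% were called higher in this comparison and 32.3% had all iE/R libraries above all WT libraries. Ifi203, Mndal and Aim2 passed the filter on low values (at least 1 CPM in at least 3 libraries) on WT libraries alone. The other 5 members passed only with the help of iE/R libraries, so that a difference was built into their being tested. In bone marrow the same genotype comparison called 5 members higher, Ifi203, Mndal, Aim2, Ifi204 and Ifi213, where 14.4% of all genes were called higher and 23.6% had all iE/R libraries above all WT libraries. The median difference of the 8 members was 2.87 in fetal liver and 0.76 in bone marrow, beside medians over all genes tested of 0.08 and 0.13.

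**Figure D1:**
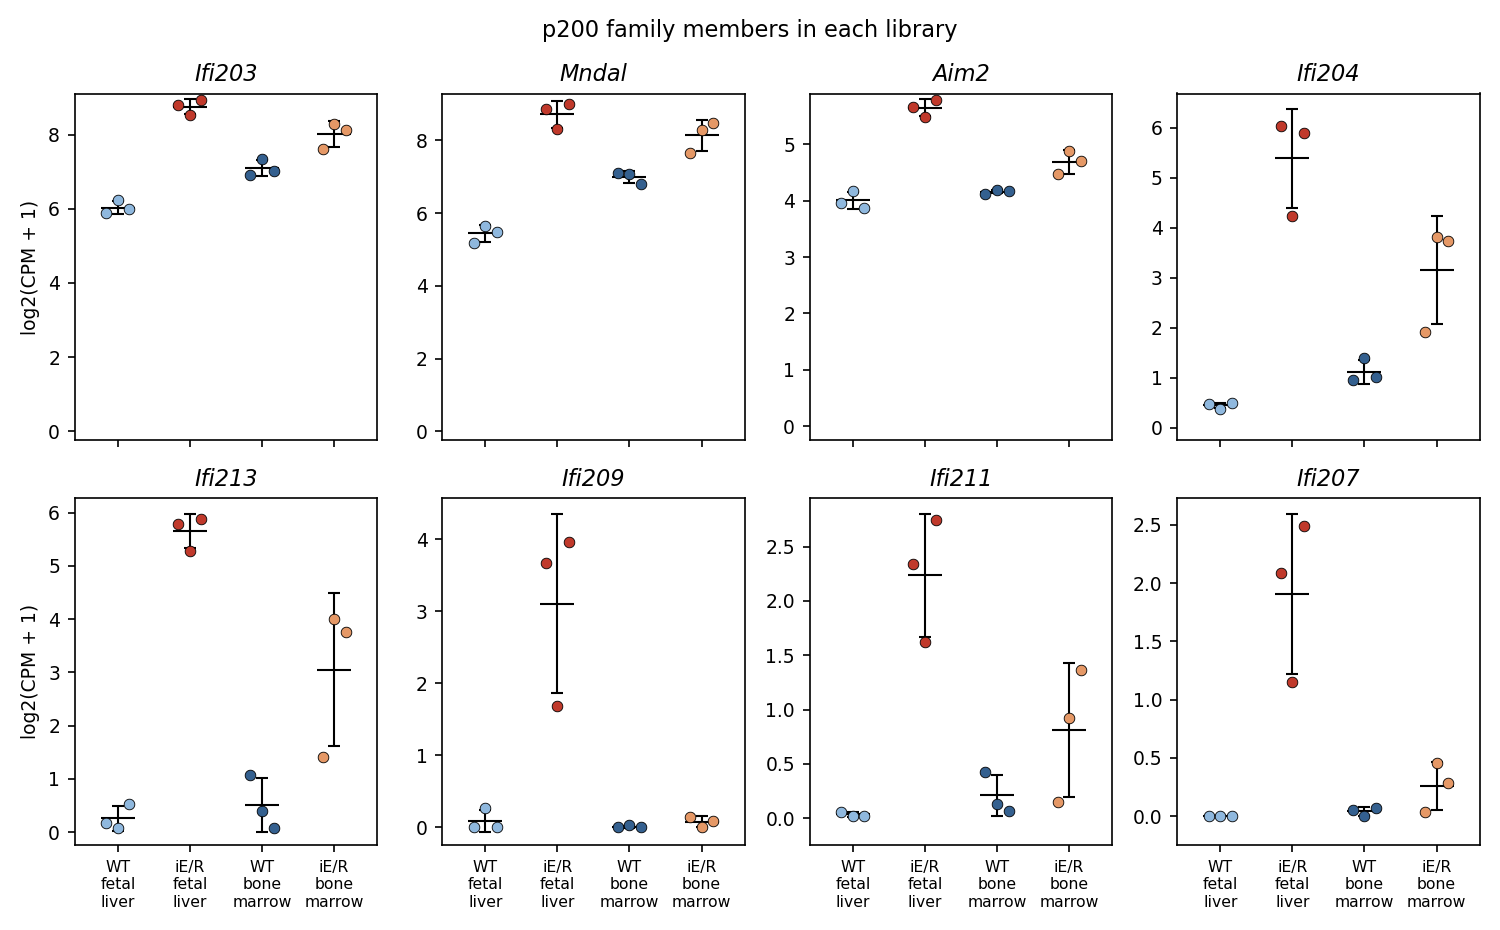
Level of each member in each library, as log2(CPM + 1) on the vertical axis, whose range differs between panels; points are libraries, horizontal bars are means and error bars are standard deviations of 3 libraries. In every panel the iE/R fetal liver libraries lie above the WT fetal liver libraries, while Ifi207, Ifi209 and Ifi211 stay near 0 in most bone marrow libraries.

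Ifi203 was one of the pair that made up most of the family's reads. In WT fetal liver its level was 58.5, 74.0 and 62.2 CPM in the 3 libraries, and in iE/R fetal liver 445, 369 and 486 CPM. In bone marrow it was 119, 160 and 130 CPM in WT and 195, 310 and 280 CPM in iE/R. The genotypes did not overlap in either source, and the lowest WT bone marrow library lay above the highest WT fetal liver library. Ifi203 was 6.68-fold higher with the fusion in fetal liver (log2 difference 2.72 ± 0.18 SE, limma adjusted p = 5.45e-08) and 1.92-fold higher in bone marrow (0.92 ± 0.18, limma adjusted p = 0.00391).

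Mndal, whose name stands for myeloid nuclear differentiation antigen like, moved in the same way from a lower WT fetal liver level. Its libraries read 35.3, 49.5 and 44.0 CPM in WT fetal liver and 465, 315 and 513 CPM in iE/R fetal liver. The bone marrow libraries read 137, 134 and 111 CPM in WT and 202, 312 and 356 CPM in iE/R. Again no WT library reached an iE/R library of the same source. Mndal rose 10.03-fold in fetal liver (3.28 ± 0.22 SE, adjusted p = 5.75e-08 by limma) and 2.29-fold in bone marrow (1.15 ± 0.22, limma adjusted p = 0.00318). Per kb of exon, so that genes can be set side by side, Mndal stood at 11.8 and Ifi203 at 9.67 CPM per kb in WT fetal liver, and at 119 and 64.6 CPM per kb in iE/R fetal liver.

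Aim2, the cytosolic DNA sensor, was the member with the smallest log2 difference in fetal liver and the one whose WT levels barely differed by source. WT libraries held 14.55, 17.1 and 13.7 CPM in fetal liver and 16.4, 17.2 and 17.0 CPM in bone marrow. The iE/R libraries held 49.7, 43.8 and 54.3 CPM in fetal liver and 21.1, 28.6 and 24.9 CPM in bone marrow. The iE/R libraries stood above the WT libraries in both sources, with a narrow gap in bone marrow. Aim2 rose 3.26-fold in fetal liver (1.64 ± 0.16 SE, limma adjusted p = 2.31e-06). In bone marrow the ratio was 1.47 (0.52 ± 0.16, limma adjusted p = 0.0329), a call that was lost in 11 of 21 alternative settings, with adjusted p up to 0.265 under quantile normalization.

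Ifi204 and Ifi213 went from near absence in WT cells to well above 10 CPM in every iE/R fetal liver library. Ifi204 stood at 0.389, 0.301 and 0.403 CPM in the WT fetal liver libraries and at 64.4, 17.9 and 58.1 CPM in the iE/R ones. In bone marrow it stood at 0.933, 1.64 and 1.02 CPM in WT and at 2.76, 13.0 and 12.3 CPM in iE/R. All iE/R libraries exceeded all WT libraries of their source, although replicate 2 of iE/R fetal liver and replicate 1 of iE/R bone marrow lay well below their fellow libraries. The fetal liver difference was 4.94 ± 0.48 SE (limma adjusted p = 2.61e-06), a 128-fold ratio of means. The bone marrow difference was 2.03 ± 0.48 (limma adjusted p = 0.0108), a 7.81-fold ratio of means, and was lost without replicate 2 of iE/R bone marrow (adjusted p = 0.0544) and when all genes with reads were tested (0.0577).

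Ifi213 had the largest fetal liver difference of the members on the log2(CPM + 1) scale, while DESeq2 put Ifi207 first (9.78, against 7.81 for Ifi213), as did edgeR (10.13 and 7.75). With no WT fetal liver read, the fitted values of Ifi207 depend on the tool and its settings and are no bound. Its WT fetal liver libraries gave 0.130, 0.0502 and 0.434 CPM, and its iE/R fetal liver libraries gave 54.0, 38.0 and 58.0 CPM. The WT bone marrow libraries gave 1.10, 0.312 and 0.0498 CPM and the iE/R ones 1.65, 15.0 and 12.5 CPM. In bone marrow the lowest iE/R library and the highest WT library were close together, while in fetal liver the groups were far apart. Ifi213 ranked 40 of 14271 genes by its difference in fetal liver (5.39 ± 0.51 SE, adjusted p = 1.8e-06 by limma) and 43 of 14271 in bone marrow (2.54 ± 0.51, limma adjusted p = 0.0043).

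Ifi209, Ifi211 and Ifi207 had levels above a few reads in iE/R fetal liver and little elsewhere. Ifi209 was read 0, 12 and 0 times in the WT fetal liver libraries and stood at 11.8, 2.21 and 14.52 CPM in the iE/R ones. Its bone marrow libraries held 1 read in WT and 6 reads in iE/R over 3 libraries each. Thus all but 1 of the WT libraries, and 2 of the 3 iE/R bone marrow libraries, were at or under the floor. The fitted difference in fetal liver was 3.02 ± 0.41 SE (limma adjusted p = 5.79e-05). In bone marrow it was 0.07 ± 0.41 (limma adjusted p = 0.925), and at these counts a difference was not detectable.

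Ifi211 had 4 reads over the 3 WT fetal liver libraries, each of them under the floor, and 4.08, 2.08 and 5.70 CPM in the iE/R libraries. In bone marrow WT libraries stood at 0.343, 0.0974 and 0.0498 CPM and iE/R libraries at 0.108, 0.896 and 1.58 CPM, so that the genotypes overlapped. The fetal liver difference was 2.20 ± 0.30 SE (limma adjusted p = 6.29e-05). The bone marrow difference of 0.60 ± 0.30 was not called by limma (adjusted p = 0.178). It was called by DESeq2 (adjusted p = 0.0343) and without replicate 1 of iE/R bone marrow (limma adjusted p = 0.046).

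Ifi207 was not read at all in the 3 WT fetal liver libraries and stood at 3.26, 1.22 and 4.62 CPM in the iE/R ones. Against the floor of 3 reads per library, iE/R fetal liver was at least 56.3-fold higher. In bone marrow it had 4 reads over the WT libraries and 1, 12 and 7 reads in the iE/R libraries. The fitted differences were 1.91 ± 0.27 SE in fetal liver (adjusted p = 6.88e-05 by limma) and 0.22 ± 0.27 in bone marrow (limma adjusted p = 0.6), and for Ifi207, Ifi209 and Ifi211 such values depend on the 1 CPM added before the logarithm.

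The difference between the 2 genotype effects was tested directly as an interaction, which is positive where the fusion's effect was greater in fetal liver. It was called for each of the 8 members, all positive, where 5.56% of all genes were called positive. Ifi207 and Ifi209 reached 1 CPM in iE/R fetal liver libraries and in no other, so a positive value was built into their being tested. Besides the 3 iE/R fetal liver libraries, Ifi211 reached it in only 1 iE/R bone marrow library, so it too passed through the group where it is high. The count of 8 is therefore a description. The 3 members that passed the filter on WT libraries alone gave 1.80 ± 0.25 SE for Ifi203 (limma adjusted p = 0.000666), 2.13 ± 0.31 for Mndal (0.000787) and 1.12 ± 0.22 for Aim2 (0.00699). These 3 calls held in all 20 alternative settings run. The calls of the other members were less steady. That of Ifi211 was lost in 10 of 19 alternatives. That of Ifi213 was lost in 6 of 20, among them both count-based tests, 0.1 CPM added in place of 1, and all genes with reads. The call of Ifi209 was lost with both count-based tests, that of Ifi207 with edgeR and that of Ifi204 when all genes with reads were tested.

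**Figure D2:**
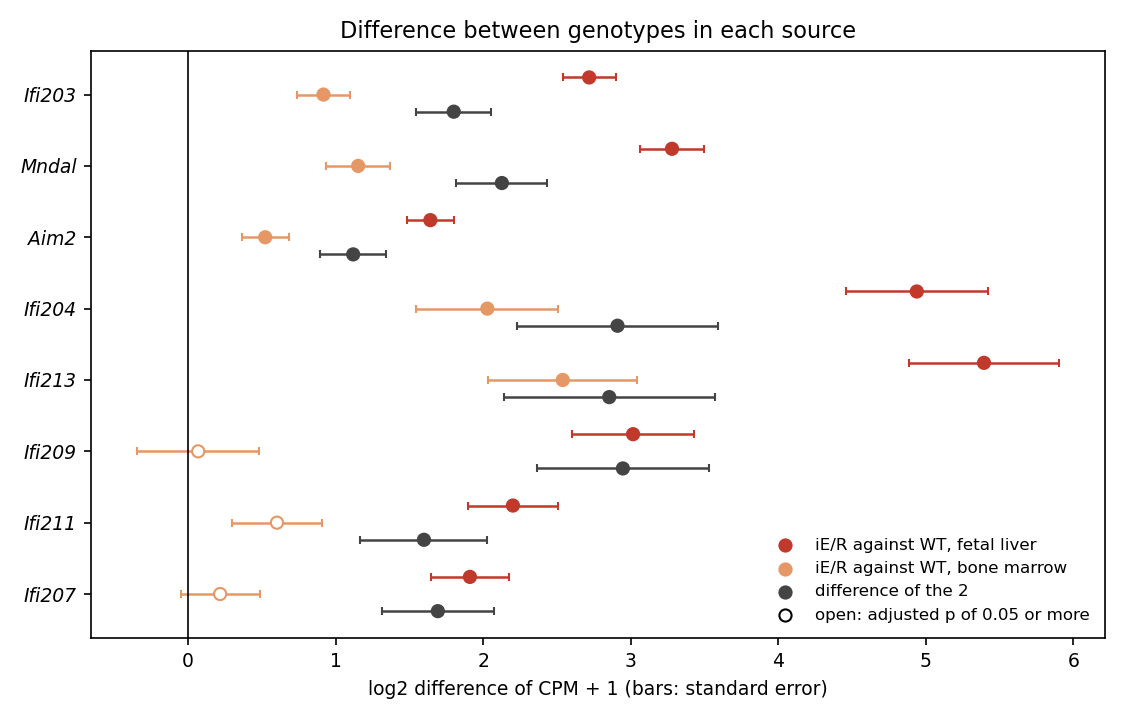
Log2 difference of CPM + 1 between iE/R and WT (horizontal axis, bars are standard errors) for each member in fetal liver and in bone marrow, with the difference of the 2 effects; open points have a limma adjusted p of 0.05 or more. Every fetal liver point lies right of its bone marrow point, and the open points are the bone marrow values of Ifi209, Ifi211 and Ifi207.

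As paralogs share sequence, the members were also summed, which leaves the stretches shared with p200 genes outside the 8, such as those of Ifi211 with Ifi205 and of Ifi209 with Ifi214. The 8 members took 109, 141 and 121 CPM in WT fetal liver. It took 1097, 789 and 1194 CPM in iE/R fetal liver, 274, 313 and 259 CPM in WT bone marrow and 423, 680 and 687 CPM in iE/R bone marrow. The 4 groups did not overlap in any of the comparisons by genotype or source, and the order was WT fetal liver, WT bone marrow, iE/R bone marrow, iE/R fetal liver. The group means were 124 ± 16.3, 282 ± 28.0, 597 ± 151 and 1027 ± 212 CPM (SD, n = 3) in that order. The iE/R sum was 8.31 times the WT sum in fetal liver and 2.11 times in bone marrow. With the 6 other p200 genes added, these ratios were 8.80 and 2.17. Ifi203 and Mndal together made up between 82.9% and 93.9% of the sum in each library. The other 6 members summed to 15.8 ± 1.65 CPM in WT fetal liver, 163 ± 49.8 in iE/R fetal liver, 18.8 ± 0.533 in WT bone marrow and 45.0 ± 17.0 in iE/R bone marrow.

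**Figure D3:**
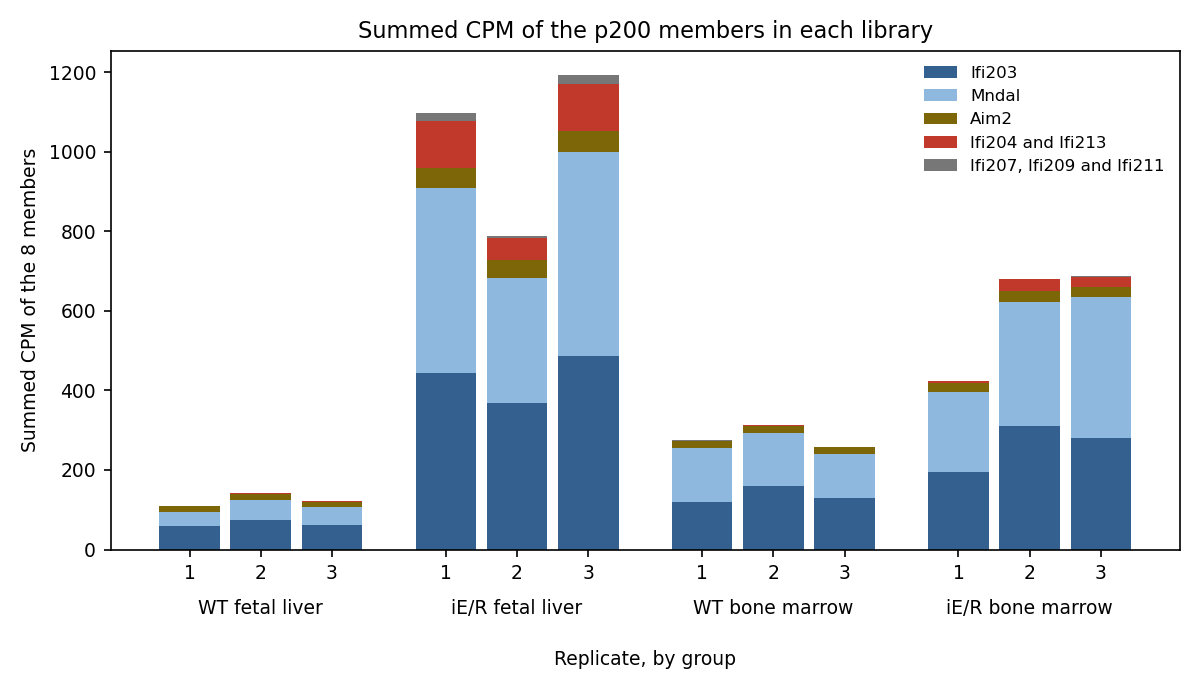
Summed CPM of the 8 members (vertical axis, from 0) in each of the 12 libraries, by group, with each bar divided by member. The iE/R fetal liver bars reach 789 to 1194 CPM and the WT fetal liver bars 109 to 141 CPM; Ifi203 and Mndal fill most of every bar.

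The sources were also compared within each genotype. In WT cells, Ifi203 and Mndal were lower in fetal liver than in bone marrow, by −1.06 ± 0.18 SE (limma adjusted p = 0.00143) and −1.55 ± 0.22 (limma adjusted p = 0.000336). Of all genes tested, 7.77% were called lower in fetal liver here. The other 6 members were not called, and Aim2 differed by −0.16 ± 0.16 (limma adjusted p = 0.578). Without overlap between the sources, 4 members (Ifi203, Mndal, Ifi204 and Ifi211) were lower in fetal liver, beside 18.9% of all genes. In iE/R cells, 7 members were called higher in fetal liver than in bone marrow, where 10.4% of all genes were called higher, and the same 7 did not overlap, beside 14.4% of all genes. For Ifi207 and Ifi209, at 1 CPM or more in iE/R fetal liver alone, this direction too was built into the filter. Ifi211, at 1 CPM or more in only 1 iE/R bone marrow library besides, also passed it through iE/R fetal liver. The 7 members included Ifi203, the one member called in opposite directions in WT and iE/R cells (0.74 ± 0.18, limma adjusted p = 0.00723), Aim2 (0.96 ± 0.16, 0.000441) and Ifi204 (2.24 ± 0.48, 0.00339). Mndal was the exception, at 0.58 ± 0.22 with limma adjusted p = 0.0608 and overlapping libraries, and was called in 5 of 21 alternatives. These comparisons share their libraries with the genotype comparisons above and are not independent of them.

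Within each iE/R group, 1 library was the lowest for most members. Replicate 2 was the lowest of the iE/R fetal liver libraries for 8 of 8 members, and replicate 1 the lowest of the iE/R bone marrow libraries for 7 of 8, Ifi209 being the exception. In the WT groups the lowest value was spread over the replicates, at 3, 2 and 2 of the 7 members with reads in fetal liver and 4, 1 and 3 of 8 in bone marrow. Ifi209 had 0 reads in replicates 1 and 3 of both WT groups, and these ties were counted for replicate 1. Irf7, an interferon-induced transcription factor, read 1543, 1187 and 1737 CPM in iE/R fetal liver, lowest in replicate 2 as well, and 249, 707 and 716 CPM in iE/R bone marrow, lowest in replicate 1. Both libraries were the deepest of their groups. Replicate 2 of iE/R fetal liver had 55.7 M reads, against 47.6 M and 33.3 M in its fellow libraries. Replicate 1 of iE/R bone marrow had 37.0 M reads, against 32.4 M and 32.3 M. Whether depth played a part was not tested. Without replicate 1 of iE/R bone marrow, the bone marrow difference was 1.12 for Ifi203, 1.39 for Mndal, 2.65 for Ifi204 and 3.36 for Ifi213.

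Of the 6 remaining p200 genes, 3 passed the filter, and all 3 were called higher in iE/R fetal liver and 2 in iE/R bone marrow, beside 24.8% and 14.4% of all genes. Ifi206 and Ifi205 reached 1 CPM in iE/R libraries alone, so that a difference was built into their being tested. In fetal liver Ifi206 rose from 0.182 ± 0.186 to 43.1 ± 16.2 CPM (SD, n = 3; 5.15 ± 0.47 SE, limma adjusted p = 1.37e-06) and from 0.544 ± 0.312 to 8.89 ± 6.02 CPM in bone marrow (2.40 ± 0.47, 0.00386). The pseudogene Ifi203-ps rose from 1.26 ± 0.297 to 26.7 ± 6.70 CPM in fetal liver (3.59 ± 0.26, limma adjusted p = 1.25e-07) and from 3.86 ± 0.994 to 16.6 ± 5.68 CPM in bone marrow (1.83 ± 0.26, 0.000549). Ifi205 rose in fetal liver, from 0.0611 to 1.92 CPM (1.43 ± 0.21, limma adjusted p = 0.000121), and gave 0.60 ± 0.21 in bone marrow (0.0633). Ifi208, Ifi214 and Ifi202b did not pass the filter. Ifi208 was read 0 times in WT fetal liver and 97 times over the 3 iE/R fetal liver libraries, Ifi214 2 and 169 times, and Ifi202b 0 times and 1 time.

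Tested genes beside the cluster were also followed. Ackr1, an atypical chemokine receptor 17.1 kb before the first member, rose in iE/R fetal liver from 1.60 to 8.65 CPM (1.89 ± 0.31 SE, limma adjusted p = 0.000237) and gave −0.30 ± 0.31 in bone marrow (0.522). Its bone marrow means, 12.6 CPM in WT and 10.9 CPM in iE/R, both lay above its iE/R fetal liver mean. Farther out, Fh1, the mitochondrial fumarase, fell by 1.07 in fetal liver and by 0.63 in bone marrow. Tested as an interaction, the sources differed by 2.19 for Ackr1 (limma adjusted p = 0.00648).

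**Figure D4:**
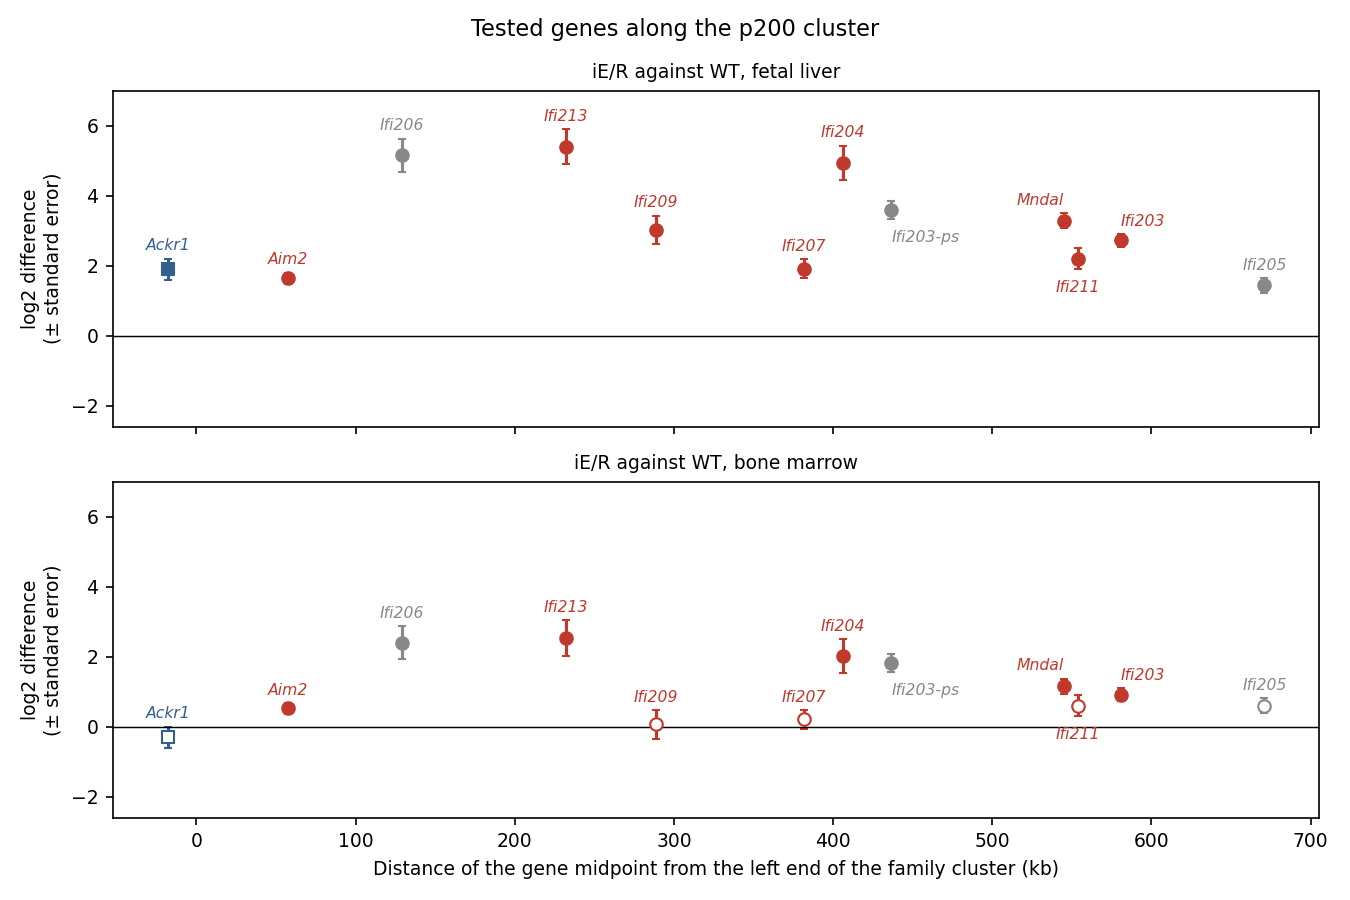
Log2 difference between iE/R and WT (vertical axis, with standard error) in fetal liver (top) and bone marrow (bottom) against the distance of each tested gene's midpoint from the left end of the cluster in kb; red circles are members, grey circles other p200 genes, the blue square Ackr1, and open symbols were not called. All circles in the top panel are filled and above 0, and the square is filled in the top panel and open in the bottom panel.

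The promoter form GAAATCGAAA occurred in the windows of 16 genes in all: 4 members, 3 other p200 genes (Ifi206, Ifi208 and Ifi214) and 9 genes outside the family. Of these 9, 6 were tested, 4 were called higher in iE/R fetal liver and 3 in iE/R bone marrow, beside 24.8% and 14.4% of all genes. They were Ddx58, which encodes the RNA sensor RIG-I (4.18 ± 0.27 SE in fetal liver, 1.79 ± 0.27 in bone marrow), Parp11 (2.47 ± 0.19 and 1.08 ± 0.19), the gene model Gm26797 (3.78 ± 0.26 and 1.499 ± 0.26) and, in fetal liver, Serpinb6a (0.98 ± 0.14). Pnrc1 and Ripk1 were not called in either source. Gm26797 averaged 0.528 CPM in WT fetal liver and 0.715 CPM in WT bone marrow. It passed the filter only with the help of iE/R libraries, so that a difference was built into its being tested. Ifi209, which lacks a match to the core, and Aim2, whose window held none, were also called higher in fetal liver, and the windows were not used to choose any member.

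A general list of inflammasome and pyroptosis genes, which takes in more than the partners of AIM2, held 22 genes, of which 17 were tested. In fetal liver 11 were called higher and 1 lower (median 1.15), and in bone marrow 4 higher and 0 lower (median 0.37), beside 24.8% and 14.4% of all genes called higher. Pycard, the adaptor that AIM2 recruits, rose from 81.6 to 146 CPM in fetal liver (0.83 ± 0.20 SE, adjusted p = 0.00363 by limma) and from 102 to 168 CPM in bone marrow (0.72 ± 0.20, 0.0211). The bone marrow call of Pycard was lost in 8 of 21 alternatives, with adjusted p up to 0.0984. Casp1, the protease of the inflammasome, rose from 13.0 to 50.6 CPM in fetal liver (1.90 ± 0.18, limma adjusted p = 1.82e-06) and gave 0.37 ± 0.18 in bone marrow (0.164). Gsdmd, the pore-forming substrate of caspase-1, rose in fetal liver (1.23 ± 0.14, limma adjusted p = 1.21e-05), and so did Il18, a cytokine that caspase-1 activates (2.07 ± 0.30, 9.54e-05). Il1b, the other such cytokine, gave −0.30 ± 0.48 in fetal liver (limma adjusted p = 0.645). Casp1, Gsdmd, Il18 and Il1b were named for their place in the pathway after their values were seen. Zbp1, a sensor of Z-form nucleic acids, had the smallest p of the list in both sources (6.70 ± 0.52 and 3.18 ± 0.52), from 0.0941 to 120 CPM in fetal liver and from 6.83 to 66.8 CPM in bone marrow. Casp8 (1.49 ± 0.13) and Casp4 (1.90 ± 0.18) rose in fetal liver, and Casp4 also in bone marrow (0.59 ± 0.18, limma adjusted p = 0.0311). Ninj1, which ruptures the plasma membrane, went in opposite directions. It fell by 0.70 in fetal liver (limma adjusted p = 0.000603) and rose by 0.71 ± 0.13 in bone marrow (0.00247), with an interaction of −1.41 ± 0.18 (limma adjusted p = 0.000321).

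Genes of cytosolic DNA sensing moved in both directions. Of 17 tested, 8 were called higher and 5 lower in fetal liver (median 0.41), and 3 higher and 2 lower in bone marrow (median 0.23). The share of all genes called higher was 24.8% in fetal liver and 14.4% in bone marrow, and the share called lower was 18.3% and 4.93%. In bone marrow, 3 of 17 higher is near the share over all genes. Samhd1, which degrades nucleotides, rose from 64.8 to 337 CPM in fetal liver (2.34 ± 0.17 SE) and from 73.3 to 131 CPM in bone marrow (0.82 ± 0.17). Adar, an RNA-editing enzyme, rose by 2.57 ± 0.23 and 0.89 ± 0.23. Rnaseh2a fell by 1.11 in fetal liver and Hmgb1 by 0.66 in bone marrow. Sting1, the adaptor downstream of the sensor cGAS, gave 0.13 ± 0.13 in fetal liver (limma adjusted p = 0.443) and 0.23 ± 0.13 in bone marrow (0.249), and was named for its role after its values were seen.

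Interferon receptors and their signalling genes, the pathway through which most p200 genes are known to be induced, numbered 24, all tested. In fetal liver 18 were called higher and 0 lower (median 1.06), and in bone marrow 14 higher and 0 lower (median 0.81). Of all genes, 24.8% and 14.4% were called higher and 18.3% and 4.93% lower. Stat2, a signal transducer of interferon receptors, rose from 28.3 to 499 CPM in fetal liver (4.10 ± 0.25 SE) and from 48.6 to 217 CPM in bone marrow (2.14 ± 0.25). Irf7 rose by 6.18 ± 0.45 and 3.13 ± 0.45. Of 20 interferon ligand genes, Ifnb1, which encodes interferon beta, was the only one tested. It reached 1 CPM in iE/R fetal liver libraries alone, and so passed the filter through the group where it is high. Its fetal liver libraries read 0.0865, 0 and 0 CPM in WT and 2.5001, 2.53 and 4.89 CPM in iE/R (2.02 ± 0.21 SE, limma adjusted p = 3.99e-06). In bone marrow it read 0.0762, 0 and 0 CPM in WT and 0.108, 0.309 and 0.124 CPM in iE/R (0.20 ± 0.21, limma adjusted p = 0.526). Of the 20 ligand genes, 7 had no read in any library and 6 exceeded the floor in at least 1 library.

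The genes whose pattern over the 12 libraries was most like that of the summed members were Gbp7, Trim12a, Trim34a, Trim12c and Irgm1. Likeness was the root mean square difference of log2(CPM + 1), centred on each gene's own mean, from the summed members, and it was 0.119, 0.127, 0.188, 0.216 and 0.235 in that order. Its median over 14260 genes was 1.17. Gbp7 stood at 107 ± 10.4 CPM in WT fetal liver, 955 ± 235 in iE/R fetal liver, 243 ± 37.8 in WT bone marrow and 510 ± 89.2 in iE/R bone marrow (SD, n = 3). Of the members themselves, Ifi203 (0.147) and Mndal (0.188), which make up most of the sum, were nearest to it, and Ifi213 (1.30) was the farthest.

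Runx1 reads averaged 121 and 227 CPM in WT and iE/R fetal liver and 96.3 and 170 CPM in WT and iE/R bone marrow. The genotypes did not overlap in either source, beside 32.3% and 23.6% of all genes with all iE/R libraries above all WT libraries. Such a rise is common here, so it does not verify the labels. Whether reads of the fusion count under Runx1 is not given in the sources used here. The 12 HSC markers were all above the floor in every group, and summed to 1571 to 1898 CPM in WT fetal liver, 3900 to 4073 in iE/R fetal liver, 1686 to 2446 in WT bone marrow and 2803 to 3117 in iE/R bone marrow. Ly6a, an HSC marker that interferon is known to induce, averaged 19.0 CPM in WT and 880 CPM in iE/R fetal liver. Of the lists of markers of other cells, some summed higher with the fusion and others did not. The 14 monocyte and macrophage markers summed to 251 to 314 CPM in WT fetal liver, 750 to 954 in iE/R fetal liver, 259 to 350 in WT bone marrow and 330 to 489 in iE/R bone marrow, with C1qa and Vsig4 at or under the floor in all 4 groups, and 6 of 6 tested were called higher in fetal liver and 2 in bone marrow, beside 24.8% and 14.4% of all genes. The 6 plasmacytoid dendritic cell markers summed to 204 to 220, 638 to 1018, 247 to 328 and 418 to 596 CPM in the same order, with Siglech at or under the floor in 3 groups and Cox6a2 in 3. Most of that sum's difference lay in Bst2, which interferon also induces, at 90.8 CPM in WT and 616 CPM in iE/R fetal liver and 101 and 281 CPM in bone marrow, while Siglech and Ccr9 averaged under 1 CPM in each group. The 8 erythroid markers summed to 729 to 1010, 1426 to 2208, 234 to 518 and 420 to 633 CPM. The 10 hepatocyte and stromal markers summed to 85.7 to 105, 156 to 191, 87.6 to 106 and 113 to 117 CPM. Only 5 of them were tested. In fetal liver 2 were called higher and 1 lower (median 0.05), beside 24.8% and 18.3% of all genes. In bone marrow 0 were called higher and 1 lower (median 0.20), beside 14.4% and 4.93%. The 8 B cell markers summed to 51.0 to 53.7, 56.0 to 82.6, 39.3 to 51.2 and 42.4 to 52.9 CPM. The 8 neutrophil markers summed to 17.9 to 20.8, 6.37 to 10.1, 3.19 to 115 and 1.89 to 2.97 CPM, and the 8 T and NK cell markers to 2.23 to 4.30, 1.70 to 4.35, 1.33 to 2.47 and 0.928 to 1.68 CPM. The part of these cells in the results was not tested, and in these bulk libraries more cells of a type and more RNA per cell cannot be told apart.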

How the data were processed

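The authors deposited CPM per gene for 12 libraries of cultured mouse HSCs. Per the submitters' processing notes, the tools included STAR 2.5.1a, featureCounts 1.4.6-p5 (Subread), Salmon 0.8.2, edgeR and limma, with the build GRCm38. The annotation, the strand setting and the treatment of reads that fit several genes are not given in the sources used here. Per the labels' protocols, the RNA was made into libraries with a stranded total RNA kit. In each library 100% of the deposited CPM values were whole multiples of 1 read (tolerance 0.01 reads), which gave back read counts and totals. Of 40757 entries 276 repeated a gene ID, leaving 40481 genes, of which 29278 had reads.

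Tested were genes that reached 1 CPM in 3 or more libraries, with limma 3.58.1 (R 4.3.3; mean-variance trend) on log2(CPM + 1), two-sided, with a mean for each of the 4 groups, no covariate, 8 residual degrees of freedom and Benjamini-Hochberg adjustment. The fit was tested on simulated counts. Alternatives tried were adding 0.1 in place of 1 CPM, testing all genes with reads, a mean of at least 5 CPM, median-of-ratios scaling, quantile normalization, a replicate block, edgeR 4.0.16 and DESeq2 1.42.0 on recovered reads, fits to the 6 libraries compared, and leaving out each library. The 8 members and the gene lists were chosen with earlier results of these data known. Named were all members, other p200 genes with reads, at most 3 called genes per list and genotype comparison by smallest p, the 5 likest genes, the nearest tested neighbours, Etv6 and Runx1; some of these are not reported here. Positions and transcripts came from GENCODE M21, and promoter windows from RefSeq. Levels per kb used the length of all annotated exons of a gene.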

Additional observations from a re-analysis of the deposited data

Results flagged for a closer look

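The effect of ETV6-RUNX1 differed between fetal liver and bone marrow for each of the 8 members, by limma's test of the difference itself (fetal liver effect minus bone marrow effect, log2(CPM + 1), 3 libraries per group). The difference was 1.80 for Ifi203, 2.91 for Ifi204, 1.69 for Ifi207, 2.95 for Ifi209, 1.60 for Ifi211, 2.85 for Ifi213, 2.13 for Mndal and 1.12 for Aim2. For Ifi204, Ifi207, Ifi209, Ifi211 and Ifi213, which passed the filter only with iE/R libraries, limma's adjusted p was 0.0172, 0.0132, 0.00651, 0.0332 and 0.0241 in that order. Ifi207 and Ifi209 reached 1 CPM in iE/R fetal liver libraries alone, so that their direction was built into their being tested. Ifi211 reached 1 CPM in only 1 library besides, in iE/R bone marrow, and so also passed the filter through iE/R fetal liver. The call of Ifi211 was lost without any 1 of 8 libraries. That of Ifi213 was lost without replicate 2 of WT fetal liver (limma adjusted p = 0.0584) or replicate 1 of iE/R fetal liver (0.0556). Both calls were also lost with 0.1 CPM added in place of 1 and when all genes with reads were tested. With edgeR and with DESeq2 the call of Ifi213 was lost as well.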

How the results depend on the processing

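In fetal liver the 8 members kept their direction and their call of a genotype difference in every alternative run. Over all 5 comparisons, 773 member values kept direction and call, 34 lost a call, 8 gained one and 2 changed sign, both in uncalled WT differences between sources: −0.0093 for Ifi209 without replicate 2 of WT fetal liver and 0.025 for Ifi213 without replicate 1 of WT bone marrow. Leaving out each library gave −0.0093 to 0.12 for the former and −0.48 to 0.025 for the latter. The count of genes called in bone marrow (2763) was 1601 when only the 6 libraries compared were fitted. The interaction count (1311) was 767 when all genes with reads were tested. Leaving out each library in turn gave 4666 to 6638 genes called for the genotypes in fetal liver, 1520 to 2924 in bone marrow, 731 to 2332 for the interaction, 868 to 2781 between sources in WT and 2831 to 4611 in iE/R. The lowest bone marrow count came without replicate 2 of iE/R bone marrow, and the highest interaction and WT counts without replicate 1 of WT bone marrow. The cause was not tested.

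Scaling moved the median over all genes in bone marrow from 0.13 to −0.001 under median-of-ratios scaling, with 1432 higher and 1397 lower calls in place of 2059 and 704, and in fetal liver from 0.08 to −0.10 under quantile normalization (2717 and 3746 in place of 3544 and 2607). Between sources, median-of-ratios scaling moved the median in iE/R from −0.16 to about 0 (2063 higher and 1450 lower calls in place of 1484 and 2604) and gave 655 and 943 calls in WT in place of 482 and 1109, and 1014 and 347 for the interaction in place of 794 and 517. Deviations of same-numbered libraries from their group means correlated at 0.16, −0.08 and 0.22 between the fetal liver groups and −0.31, 0.12 and −0.40 between the bone marrow groups. With 3 libraries per group and no differently numbered pairs set beside them, these values cannot tell whether replicate numbers pair the libraries. With the replicate block, 5838 genes were called in fetal liver, 2334 in bone marrow and 1033 for the interaction, and the bone marrow call of Aim2 was lost (0.52, limma adjusted p = 0.052).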
